A study of Homo sapiens with 24 samples.

Results

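A set of 10 secreted growth factors of the KIT ligand, VEGF, PDGF and FGF families was followed in HCT-116 cells. The genes were KITLG, VEGFA, VEGFB, VEGFC, PDGFA, PDGFB, FGF2, FGF9, FGF18 and FGF19, chosen by name as 10 of the 27263 genes on the array, and 14 probes read them. HCT-116 is an established human colon carcinoma line. The cells on every array were from 1 stably transfected clone with a doxycycline-inducible DN-Tcf4, a Tcf4 without the beta-catenin interaction domain. Control cells (Ctl) carried the construct and received neither agent, and the other groups received 5 mM sodium butyrate (NaB), 4 µg/ml doxycycline (Doxy) or both agents (DoxyNaB), with 17.5 hr of exposure to butyrate. There were 6 experiments with all 4 treatments, hence 24 arrays. The study's western blots put DN-Tcf4 protein high with both agents and minimal with doxycycline alone, so the Doxy arrays compare cells that hold little of it. The study's Wnt reporter ratio was still lower with doxycycline alone than in untreated cells. Among the Wnt-targeted genes it listed, doxycycline alone gave significantly lower Axin2 and BMP4 and higher Sox9.

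These ligands are made by one cell and read by receptor tyrosine kinases on the same or another cell. KIT ligand (stem cell factor) binds KIT, the VEGFs bind FLT1, KDR and FLT4 with neuropilins as co-receptors, and the PDGFs bind PDGFRA and PDGFRB. The canonical FGFs need heparan sulfate to bind FGFR1 to FGFR4, while FGF19 is a hormone-like member that needs a klotho protein, usually KLB. In the colon VEGFA is known for driving vessel growth in tumours, and FGF9 and FGF18 are known as Wnt-responsive ligands of colorectal cancers.

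The level of a probe is its log2 signal, set against the 75th percentile of signals on that array, so a level reads a share of the array. A lower level can come from fewer cells making the RNA or from less RNA per cell, and these cannot be told apart in bulk samples. Levels of different genes were not compared with each other. Between probes of 1 gene, mean levels were compared only to choose the brighter, and levels were summed over the genes of a marker list. Testing required a signal well above background on the 6 arrays of 1 treatment or more, which held for 10 of the 14 probes and for 8 of the 10 genes. VEGFC and FGF2 were not tested. A gene was called at a fold over 2 with a limma Benjamini-Hochberg adjusted p under 0.01, and the interaction at that adjusted p alone. The interaction is the log2 change with butyrate in the absence of doxycycline (NaB/Ctl) minus that in its presence (DoxyNaB/Doxy).

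The share of spots well above background was 78.3% to 88.1% per array in experiments 2 to 4 and 52.5% to 62.4% in experiments 1, 5 and 6. A count of arrays well above background, and the filter on it, can thus reflect the experiment as well as the level. The NaB array of experiment 3 and the DoxyNaB array of experiment 2 had the brightest negative controls (161 and 248.9 signal units, against 48.4 to 115 on the others), and leaving both out changed no count of called ligands. In experiments 2 to 4 the negative controls read 111 to 248.9 on 5 of the 6 butyrate-treated arrays, against 63.1 to 79.6 on the 6 arrays without butyrate. In experiments 1, 5 and 6 they read 48.8 to 64.3 with butyrate and 48.4 to 58 without. Their part in the changes of probes near background was not tested. The labels were checked on TCF7L2, the gene of Tcf4, and on AXIN2, a Wnt feedback gene. The log2 change of TCF7L2 in DoxyNaB/Doxy was 4.04 ± 0.69 (adjusted p = 1.07e-08), and whether its probe reads the construct is not given in the sources used here. That of AXIN2 in DoxyNaB/NaB was -2.53 ± 0.34 (adjusted p = 2.63e-11). Of 8 colon epithelial markers, 6 were well above background on all 24 arrays, while VIL1 was so on 5 and CDH17 on 2.

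The promoters of 6 of the 10 genes were in the RefSeq table (GRCh38.p14). Of these, 3 are shown because they belong to genes that responded differently below: KITLG was lowered by butyrate and further by doxycycline with butyrate, VEGFB was lowered by butyrate to a like level with or without doxycycline, and FGF18 was raised by butyrate. Each line holds the 250 bases before the start site, 5′ to 3′ on the gene's strand. Capitals mark the Tcf letters, CTTTG followed by 2 bases that are each A or T, and the GC box GGGCGG, both searched on both strands. Overlapping matches run together.
KITLG, chr12:88580472-88580721, minus strand: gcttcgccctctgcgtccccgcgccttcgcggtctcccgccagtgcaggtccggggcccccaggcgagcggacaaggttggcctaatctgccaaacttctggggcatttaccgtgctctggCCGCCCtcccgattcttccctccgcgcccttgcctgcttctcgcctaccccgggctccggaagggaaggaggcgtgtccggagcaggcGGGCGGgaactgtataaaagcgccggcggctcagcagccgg
VEGFB, chr11:64234334-64234583, plus strand: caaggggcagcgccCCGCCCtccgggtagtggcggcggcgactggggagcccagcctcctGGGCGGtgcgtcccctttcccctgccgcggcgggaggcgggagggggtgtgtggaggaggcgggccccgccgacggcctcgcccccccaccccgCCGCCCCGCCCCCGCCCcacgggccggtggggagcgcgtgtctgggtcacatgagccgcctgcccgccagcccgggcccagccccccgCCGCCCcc
FGF18, chr5:171419397-171419646, plus strand: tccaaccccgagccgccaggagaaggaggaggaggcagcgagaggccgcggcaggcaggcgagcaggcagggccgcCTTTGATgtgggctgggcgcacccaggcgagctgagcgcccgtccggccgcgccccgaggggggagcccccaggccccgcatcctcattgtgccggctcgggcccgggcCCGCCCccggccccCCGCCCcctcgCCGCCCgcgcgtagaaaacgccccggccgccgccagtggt

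The Tcf letters matched once in the FGF18 window, as CTTTGAT beginning 174 bases before the start, and in 1 of the 4 listed PDGFA promoters, as CTTTGAT beginning 215 bases before the start. None of these letters occurred in the windows of KITLG, VEGFB, VEGFC and FGF2. Of 35116 promoter windows of the same length, 11.96% hold a Tcf match and 42.6% hold a GC box. The KITLG window has 2 GC boxes, that of VEGFB has 6 and that of FGF18 has 3. A match describes letters in a window, not a bound site.

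**Figure D1:**
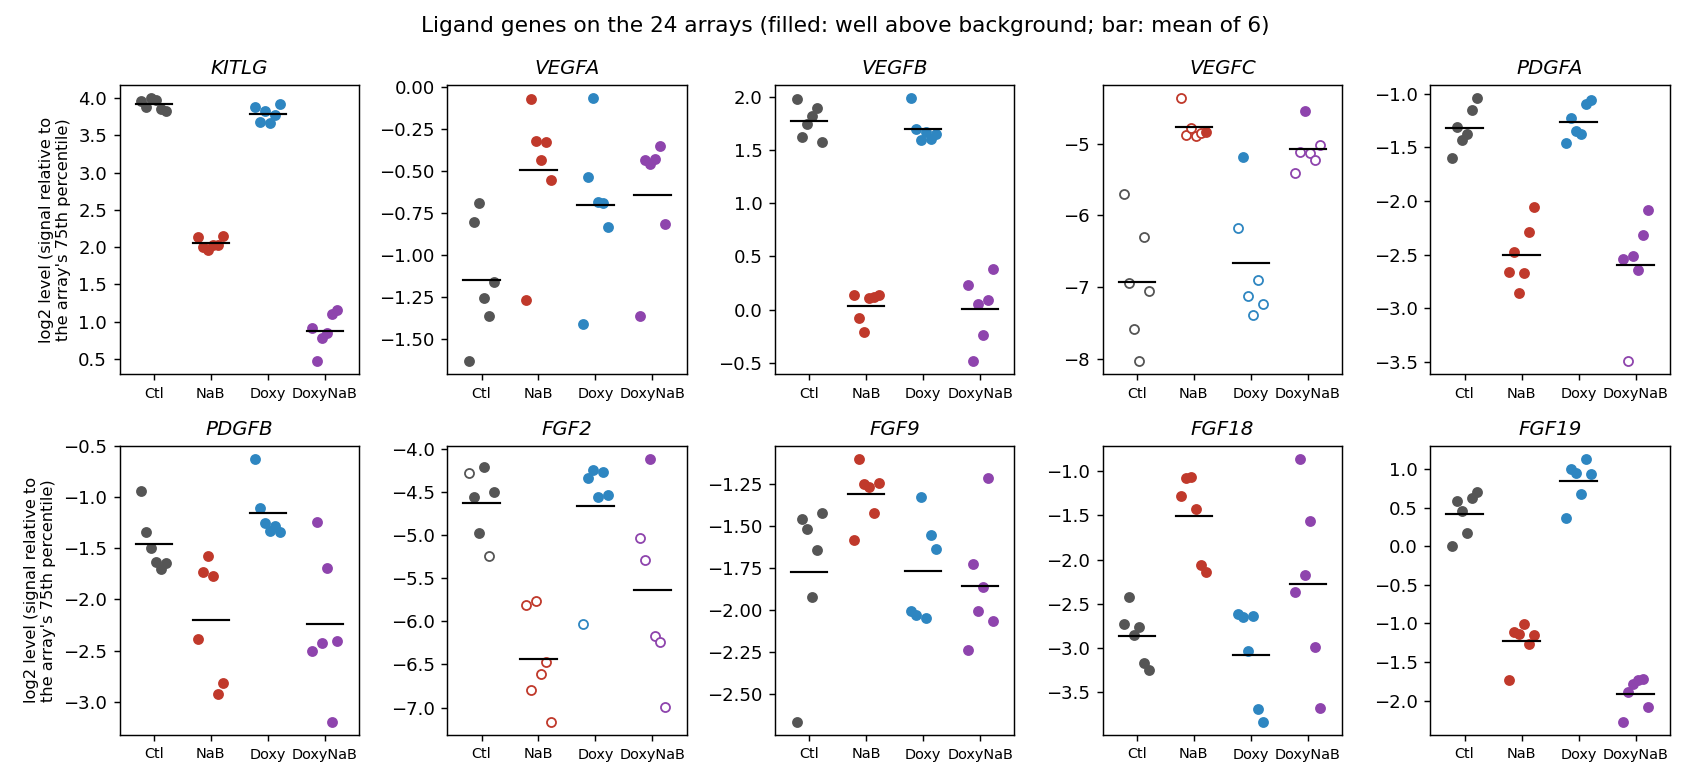
Log2 level (signal relative to the array's 75th percentile) of the brighter probe (by mean level over all arrays) of each ligand gene on the 24 arrays, by treatment. Points are single arrays in the order of experiments 1 to 6, filled where well above background, and bars are means of 6. For KITLG the Ctl and Doxy arrays overlap while NaB lies below them and DoxyNaB below NaB, and VEGFC and FGF2 are largely open points.

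KITLG, the ligand of KIT, was lowest with both agents, higher with butyrate alone and highest without butyrate. Its probe lies on NCBI36 chr12:87410784-87410843, minus strand. In Ctl its level ran from 3.83 to 4.00 (median 3.92), and in Doxy from 3.66 to 3.92 (median 3.80). In NaB it ran from 1.97 to 2.15 (median 2.03), and in DoxyNaB from 0.47 to 1.15 (median 0.88). The Ctl and Doxy arrays overlapped, every NaB array lay below both, and every DoxyNaB array lay below every NaB array.

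Butyrate alone lowered KITLG by 3.64-fold (log2 change -1.86 ± 0.12, SD over 6 experiments, adjusted p = 4.51e-13). With doxycycline present it fell by 7.52-fold (-2.91 ± 0.20, adjusted p = 2.04e-15). Doxycycline alone gave -0.13 ± 0.14, with a 95% interval from -0.29 to 0.04 and an adjusted p of 0.564. Among butyrate-treated cells, doxycycline lowered KITLG by 2.25-fold (-1.17 ± 0.21, adjusted p = 2.7e-08), lower in 6 of 6 experiments. This call was lost with scaling to the median (-1.04, adjusted p = 0.0766), with the methods' t-test after adjustment (adjusted p = 0.0172) and within experiments 5 and 6 (-0.96, adjusted p = 0.0379), and kept within experiments 2 to 4 (-1.30, adjusted p = 0.00176). KITLG is among the Wnt-targeted genes that the study listed on these same samples, so its direction in this comparison is not independent evidence.

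FGF19, the hormone-like FGF known for its part in bile acid feedback, followed the same order of treatments apart from Doxy. Its probe lies on chr11:69223092-69223151, minus strand. In Ctl its level ran from 0.01 to 0.70 (median 0.52), and in Doxy from 0.36 to 1.14 (median 0.94), higher in 6 of 6 experiments. In NaB it ran from -1.73 to -1.01 (median -1.14), and in DoxyNaB from -2.27 to -1.73 (median -1.84). All butyrate-treated arrays lay below all others, while NaB and DoxyNaB touched at the lowest NaB array, that of experiment 1.

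FGF19 fell by 3.16-fold in NaB/Ctl (-1.66 ± 0.26, adjusted p = 1.5e-11) and by 6.78-fold in DoxyNaB/Doxy (-2.76 ± 0.21, adjusted p = 1.93e-14). In DoxyNaB/NaB the change was -0.68 ± 0.17 (adjusted p = 0.00011), lower in 6 of 6 experiments but under 2-fold. In Doxy/Ctl it was 0.42 ± 0.11 with an adjusted p of 0.031, short of the threshold.

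The butyrate response of both genes differed with doxycycline. The interaction was 1.05 ± 0.18 for KITLG (adjusted p = 2.47e-05) and 1.10 ± 0.14 for FGF19 (adjusted p = 6.98e-05), with the larger fall under doxycycline in 6 of 6 experiments for each. These were 2 of the 8 tested ligands, beside 1.24% of all tested probes that passed and 1.02% that passed with this sign. For FGF19 the DoxyNaB/NaB and Doxy/Ctl changes, -0.68 and 0.42, both enter this value. For KITLG the value comes from DoxyNaB/NaB (-1.17), and Doxy/Ctl (-0.13) makes it slightly smaller. The study listed KITLG for DoxyNaB/NaB on these same samples, and the ligands were chosen with earlier results of these data known. The 2 of 8 beside 1.24% is therefore not independent evidence. The FGF19 interaction lost its call with normexp background correction (0.71, adjusted p = 0.245) and with quantile normalization (1.38, adjusted p = 0.151). Both genes lost it with scaling to the median (KITLG 0.79 and FGF19 0.84, adjusted p = 0.921 for each) and with the methods' paired t-test after adjustment over all probes (adjusted p = 0.0256 and 0.0239).

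Experiments 2 to 4 share a scan date, as do experiments 5 and 6. Within experiments 2 to 4 the interaction was 1.07 for KITLG and 1.19 for FGF19 (adjusted p = 0.0542 and 0.0771). Within experiments 5 and 6 it was 0.97 and 1.07 (adjusted p = 0.116 and 0.176). Sizes were close to the pooled values, and no call was made with these fewer arrays.

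**Figure D2:**
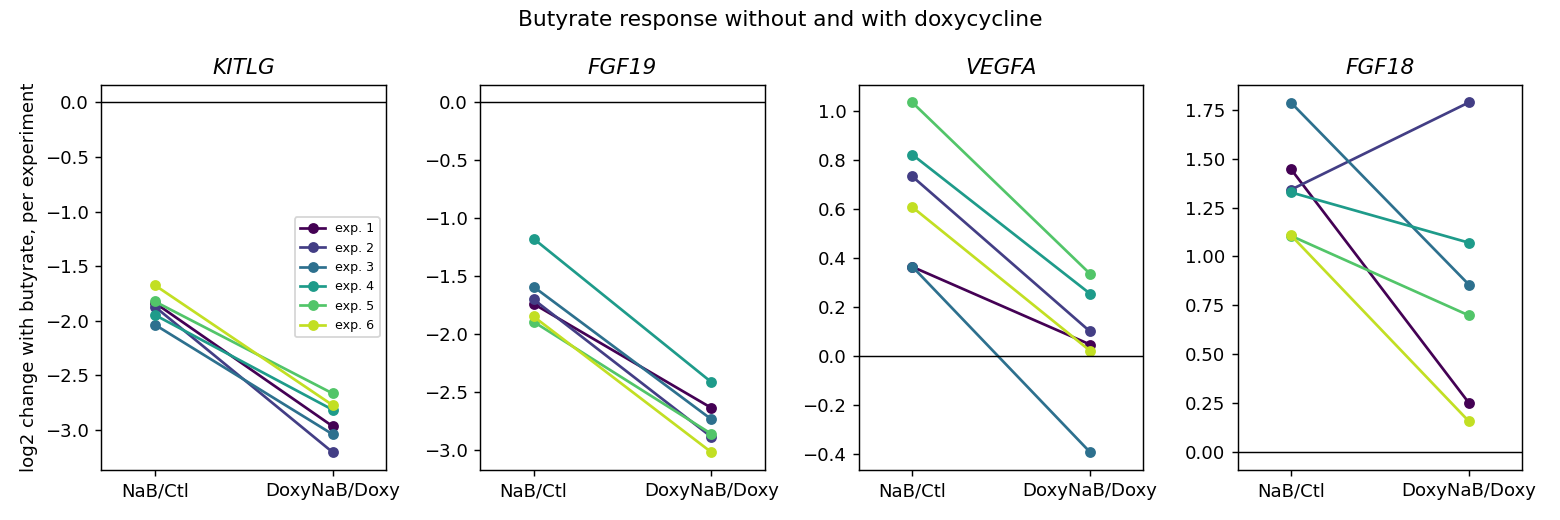
Log2 change with butyrate in each experiment without doxycycline (NaB/Ctl) and with it (DoxyNaB/Doxy) for KITLG, FGF19, VEGFA and FGF18. Each line is 1 experiment. KITLG, FGF19 and VEGFA move down in all 6 experiments, and FGF18 in 5 of 6.

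The VEGF ligands did not move together. VEGFB, a ligand of FLT1, has its probe on chr11:63762687-63762746, plus strand. Its level ran from 1.57 to 1.98 in Ctl (median 1.78), from 1.59 to 1.99 in Doxy (median 1.67), from -0.21 to 0.14 in NaB (median 0.11) and from -0.48 to 0.38 in DoxyNaB (median 0.07). The butyrate-treated arrays lay below all others, and within each pair the treatments overlapped.

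VEGFB fell by 3.34-fold in NaB/Ctl (-1.74 ± 0.18, adjusted p = 3.22e-11) and by 3.24-fold in DoxyNaB/Doxy (-1.70 ± 0.32, adjusted p = 4.28e-11). The interaction was -0.04, with a 95% interval from -0.34 to 0.26 and an adjusted p of 0.947. That interval leaves out an interaction as large as those of KITLG and FGF19.

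VEGFA, the main angiogenic factor of the family, is read by 2 probes whose starts lie 7288 bases apart. They are annotated to different transcripts. The brighter spans chr6:43854201-43854612, plus strand, and the dimmer lies on chr6:43861489-43861548. On the brighter probe the Ctl level ran from -1.63 to -0.69 (median -1.21), Doxy from -1.41 to -0.07 (median -0.69), NaB from -1.27 to -0.07 (median -0.38) and DoxyNaB from -1.36 to -0.35 (median -0.45). All 4 ranges overlapped, and the arrays of experiment 1 were the lowest of each treatment.

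Paired by experiment, VEGFA was higher in NaB than in Ctl in 6 of 6 experiments on both probes, by 0.65 ± 0.26 on the brighter (adjusted p = 1.14e-05) and 0.61 ± 0.45 on the dimmer (adjusted p = 0.0165). The change was under 2-fold, so VEGFA was not called. Its direction also depends on the scaling, being -0.25 with scaling to the median, under which the median of all tested probes was -0.74. In DoxyNaB/Doxy the brighter probe gave 0.06 ± 0.25 (adjusted p = 0.59). In Doxy/Ctl it gave 0.45 ± 0.20, higher in 6 of 6 experiments (adjusted p = 0.0357), and the interaction was 0.59 ± 0.15, positive in 6 of 6 (adjusted p = 0.0336). Neither passed the threshold of 0.01.

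VEGFC, the lymphatic growth factor and ligand of FLT4, was mostly not well above background. Its probe (chr4:177841817-177841876, minus strand) was well above it on 0 of 6 Ctl arrays and on 1 of 6 in each other treatment. Measured levels ran from -8.02 to -5.70 in Ctl (median -6.99), from -4.89 to -4.37 in NaB (median -4.85), from -7.39 to -5.19 in Doxy (median -7.01) and from -5.40 to -4.55 in DoxyNaB (median -5.12). The measured NaB levels lay above those of all Ctl arrays and DoxyNaB overlapped Doxy, but with 1 of 6 NaB arrays well above background no direction is given.

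PDGFA and PDGFB, whose products pair into the PDGF dimers, both had lower mean levels with butyrate. PDGFA is read by a probe printed in 10 spots (chr7:503455-503514, minus strand) and by a probe in 1 spot, whose start lies 20103 bases away (chr7:523558-523617). Their mean levels over the 24 arrays were close, at -1.92 and -2.05, and the 10-spot probe was taken as the higher. On the 10-spot probe the level ran from -1.60 to -1.04 in Ctl (median -1.34), -1.46 to -1.06 in Doxy (median -1.29), -2.86 to -2.06 in NaB (median -2.57) and -3.49 to -2.08 in DoxyNaB (median -2.53). Butyrate-treated arrays lay below all the others.

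PDGFA fell by 2.27-fold in NaB/Ctl (-1.18 ± 0.15, adjusted p = 2.77e-07) and by 2.53-fold in DoxyNaB/Doxy (-1.34 ± 0.46, adjusted p = 5.68e-08), with an interaction of 0.15 (adjusted p = 0.822). With normexp background correction both falls were under 2-fold, at -0.91 and -0.61, and PDGFA was not called. The single-spot probe gave -0.23 ± 0.69 (adjusted p = 0.498) and -0.49 ± 1.03 (adjusted p = 0.154), so the calls of PDGFA rest on the choice of probe.

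The single-spot PDGFA probe split between experiments 2 to 4, which share a scan date, and the other experiments. In experiments 2 to 4 its NaB/Ctl change was 0.33 ± 0.46 (SD, n = 3), and in experiments 1, 5 and 6 it was -0.80 ± 0.18 (SD, n = 3). The 10-spot probe gave -1.30 ± 0.13 and -1.07 ± 0.06 in the same experiments. This split was chosen after the values were seen, and its cause was not tested. The mean over both probes was -0.71 in NaB/Ctl and -0.91 in DoxyNaB/Doxy, neither past 2-fold. The 2 probes are annotated to different transcripts of PDGFA, so their mean may not read 1 RNA. Whether they read different transcripts was not tested.

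PDGFB (chr22:37950045-37950104, minus strand) had levels from -1.70 to -0.94 in Ctl (median -1.57), -1.34 to -0.63 in Doxy (median -1.27), -2.92 to -1.58 in NaB (median -2.08) and -3.19 to -1.24 in DoxyNaB (median -2.42). It was lower with butyrate in 6 of 6 experiments in each comparison, but the arrays overlapped. The change was -0.74 ± 0.61 in NaB/Ctl (adjusted p = 0.00651, under 2-fold) and -1.09 ± 0.74 in DoxyNaB/Doxy, where it was called at 2.13-fold (adjusted p = 0.000289). That call was lost without experiment 1 (-0.93) and without experiment 5 (-0.92).

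In NaB/Ctl PDGFB also split between experiments 2 to 4 and the other experiments. Within experiments 2 to 4 it gave -0.20 in NaB/Ctl and -0.56 in DoxyNaB/Doxy (adjusted p = 0.443 and 0.0553), and within experiments 5 and 6 it gave -1.20 and -1.49 (adjusted p = 0.00356 and 0.00146). In DoxyNaB/Doxy the single experiments overlapped, with -1.17 in experiment 3 and -1.07 in experiment 6. The difference between these groups of experiments was not tested.

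**Figure D3:**
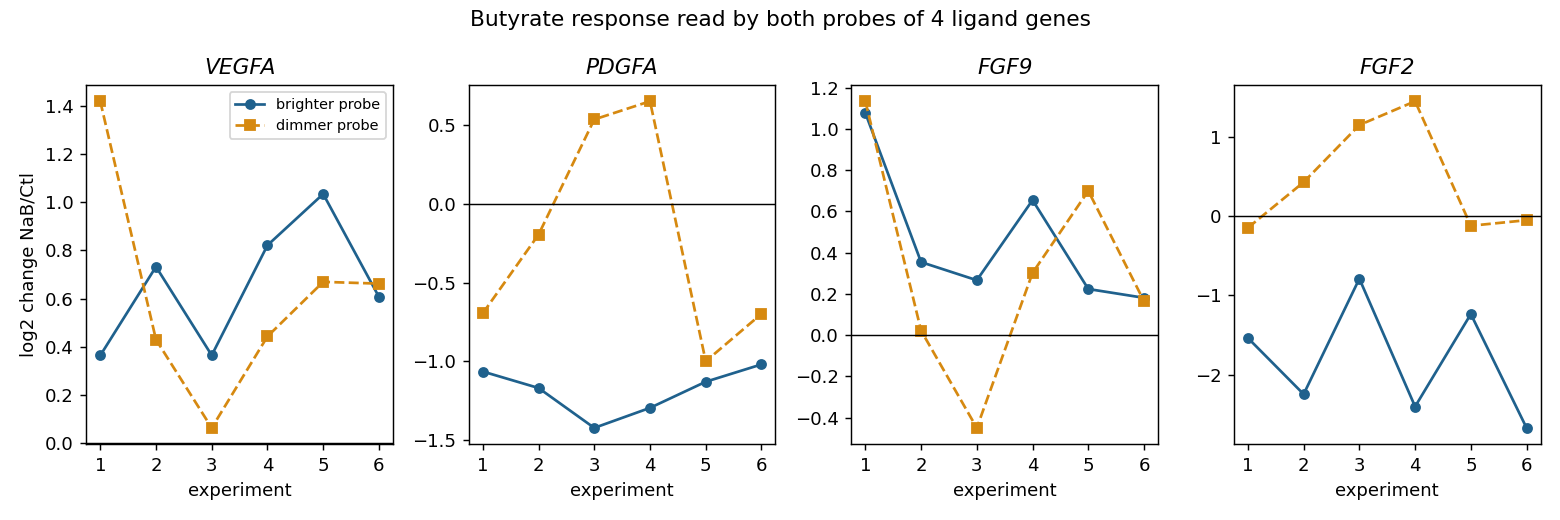
Log2 change NaB/Ctl in each of the 6 experiments on both probes of VEGFA, PDGFA, FGF9 and FGF2 (solid: the brighter probe by mean level over the 24 arrays, which for PDGFA is the 10-spot probe, dashed: the dimmer probe). The PDGFA probes lie furthest apart in experiments 3 and 4, and the FGF2 probes were mostly not well above background.

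Of the other FGFs, FGF18, a ligand of FGFR3 and other FGF receptors, was higher with butyrate. The positions in the files run over chr5:170795863-170808795, plus strand, 12933 bases, which is more than a probe's 60. Its level ran from -3.24 to -2.42 in Ctl (median -2.80), -3.83 to -2.61 in Doxy (median -2.84), -2.14 to -1.07 in NaB (median -1.36) and -3.67 to -0.86 in DoxyNaB (median -2.27). Every NaB array lay above every Ctl and Doxy array, while DoxyNaB ran from the low Doxy levels to above the highest NaB array.

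FGF18 rose by 2.55-fold in NaB/Ctl (1.35 ± 0.25, adjusted p = 5.75e-06), the only ligand called higher. It was short of 2-fold with normexp (0.60), quantile normalization (0.80) and scaling to the median (0.45). In DoxyNaB/Doxy it was higher in 6 of 6 experiments by 0.80 ± 0.60 (adjusted p = 0.00124, under 2-fold), and in DoxyNaB/NaB it was -0.76 ± 0.66 (adjusted p = 0.0311). The interaction was 0.55, with a 95% interval from -0.04 to 1.13 and an adjusted p of 0.455, so the responses with and without doxycycline were not shown to differ.

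FGF9, a ligand of FGFR3 and FGFR2, has a brighter probe on chr13:21173660-21173719 and a dimmer one 2833 bases further on, plus strand. On the brighter probe the level ran from -2.66 to -1.43 in Ctl (median -1.58), -2.05 to -1.33 in Doxy (median -1.82), -1.58 to -1.10 in NaB (median -1.26) and -2.24 to -1.22 in DoxyNaB (median -1.94), and the treatments overlapped. The change was 0.46 ± 0.35 in NaB/Ctl (adjusted p = 0.0122), higher in 6 of 6 experiments, and -0.09 ± 0.42 in DoxyNaB/Doxy (adjusted p = 0.619). The first is -0.03 with quantile normalization and -0.45 with scaling to the median. The dimmer probe, well above background on 17 of 24 arrays, gave 0.31 ± 0.55 and -0.08 ± 0.74, untested.

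FGF2, a heparin-binding mitogen without a signal peptide, has 2 probes on chr4 that share 46 bases (124038781-124038840 and 124038767-124038826, plus strand). The brighter was well above background on 4 Ctl, 0 NaB, 5 Doxy and 1 DoxyNaB arrays, and the dimmer on 1 of 24. On the brighter probe measured levels ran from -5.24 to -4.21 in Ctl (median -4.52), -7.16 to -5.76 in NaB (median -6.54), -6.03 to -4.25 in Doxy (median -4.43) and -6.99 to -4.11 in DoxyNaB (median -5.73). The NaB arrays lay below all Ctl arrays but were not well above background, and no fold is given because the Ctl mean was below the lowest signal well above background on the NaB arrays. The dimmer probe was well above background on 0 Ctl and 0 NaB arrays, so no direction is given for it.

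Across the ligands, 5 of the 8 tested genes were called in NaB/Ctl, beside 31.7% of all tested probes. FGF18 was higher (20.7% of all probes were) and KITLG, VEGFB, PDGFA and FGF19 were lower (11% were). The same 5 genes had arrays that did not overlap between NaB and Ctl, as did 43.1% of all probes. VEGFA and PDGFB passed the adjusted p but not the fold, which made 7 of 8 past that p beside 68.2% of all probes. The median change of the 8 genes was -0.96, and that of all tested probes was 0.17. The ligands were chosen with earlier results of these data known, so counts set beside these shares are not independent evidence.

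In DoxyNaB/Doxy 5 of the 8 were called, beside 30.6% of all probes. All 5 were lower (12.3% of all probes were), namely KITLG, VEGFB, PDGFA, PDGFB and FGF19. With FGF18, 6 of 8 passed the adjusted p, beside 67% of all probes. Arrays did not overlap for 4 of the 8, all of those called except PDGFB, beside 41.5% of all probes. The median of the 8 was -1.21, against 0.10 over all probes. NaB/Ctl and DoxyNaB/Doxy share no arrays.

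In Doxy/Ctl 0 of the 8 were called with limma, beside 0.0948% of all probes. At an unadjusted p under 0.05, 2 passed with limma (VEGFA and FGF19) and 3 with the methods' paired t-test. The share of all probes at that p was not taken, so these counts cannot be judged against it. PDGFB gave 0.30 ± 0.06, higher in 6 of 6 experiments, with a limma adjusted p of 0.654. The median change of the 8 was 0.03. In DoxyNaB/NaB 1 of the 8 was called, KITLG, beside 0.374% of all probes called and 0.248% called lower. KITLG is a gene that the study listed in this comparison on these same samples. Its arrays were also the only ones of the 8 that did not overlap, beside 1.66% of all probes. FGF19 passed the adjusted p without the fold, which made 2 of 8 beside 2.48%. The median there was -0.34, against -0.03 over all probes.

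**Figure D4:**
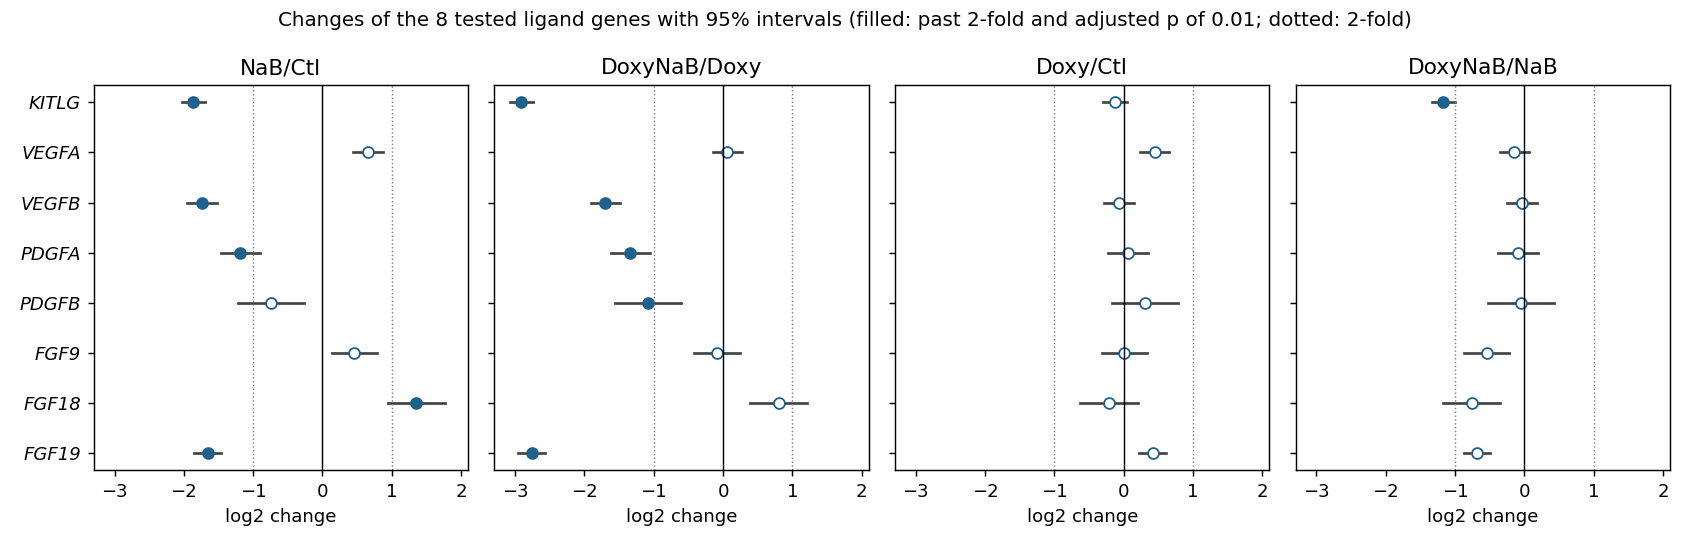
Log2 change of the 8 tested ligand genes (brighter probe) in 4 comparisons, with the 95% interval of the limma fit. Filled points passed 2-fold and an adjusted p of 0.01, and dotted lines mark 2-fold. KITLG is filled in 3 of the 4 panels and no gene is filled in Doxy/Ctl.

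The genes whose levels followed a ligand most closely were taken over the 24 arrays after centring on the experiment, among 12721 probes that each stood for 1 gene. These arrays share treatments, and 1998 probes had an r above 0.9 with KITLG, so a high r is common here. Nearest to KITLG were TRIML2 (r = 0.995), KRT23 (0.992) and CCND1 (0.992). Nearest to FGF19 were SETD6 (0.994), TSPAN14 (0.991) and PAK1 (0.989). Nearest to VEGFB were HNRNPL, PCBD1 and PPP1R14B, each at 0.997, and nearest to PDGFA were TNFSF12 (0.995), PCBD2 (0.995) and CPNE8 (0.994).

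PDGFB was nearest to PXDC1 (0.984), TIGD5 (0.971) and BCL3 (0.970), and FGF18 to SYBU (0.971), TBX3 (0.947) and FAM226A (0.940). VEGFA and FGF9 had 0 probes above 0.9. VEGFA was nearest to ULBP1 (0.880), CCNH (0.848) and TSC22D3 (0.834), and FGF9 to ARHGAP5 (0.799), ULK4P1 (0.791) and CNTRL (0.750). Between the ligands themselves r was 0.973 for PDGFA with VEGFB and 0.969 for KITLG with FGF19, and it was -0.84 for FGF18 with either PDGFA or VEGFB.

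Of 22 other ligands of the families, 7 were tested. In NaB/Ctl FGF22 (1.70 ± 0.74) and PGF, the placental VEGF family member (1.05 ± 0.11), rose, and PDGFC fell (-1.67 ± 0.16). FGF8 gave 0.88 ± 1.05 (adjusted p = 0.0816) and was not called. These 3 of 7 stood beside 31.7% of all tested probes. FGF22 was well above background on 3 Ctl, 4 NaB, 4 Doxy and 6 DoxyNaB arrays, so it was tested through DoxyNaB alone. The same 3 were called in DoxyNaB/Doxy, at 1.93, 1.45 and -1.90, beside 30.6% of all probes. The median over the 7 was -0.06 in NaB/Ctl. Of the genes called in this and the following lists, 32 in NaB/Ctl and 38 in DoxyNaB/Doxy with the check and marker genes included, 0 changed sign under normexp, quantile normalization or scaling to the median. These settings refit the same arrays on genes picked as past 2-fold, so a kept sign was likely beforehand and is weak evidence of direction. Sizes were less stable. In NaB/Ctl 14, 6 and 14 of the 32 were under 2-fold with these settings, in that order, and in DoxyNaB/Doxy 7, 5 and 15 of the 38. In NaB/Ctl FGF22 was 0.40 with normexp, and PGF was 0.14 with scaling to the median.

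Of 16 receptors and co-receptors, 9 were tested. KIT and the klotho co-receptors KL and KLB were each well above background on 12 of 24 arrays, 3 of the 6 in each treatment. The VEGF receptor KDR and the PDGF receptor PDGFRB were so on 9, PDGFRA on 5 and FLT1 on 4. In NaB/Ctl 3 of the 9 were called and in DoxyNaB/Doxy 4, beside 31.7% and 30.6% of all probes. FLT4, the VEGFC receptor, rose in NaB/Ctl (2.21 ± 0.50) and in DoxyNaB/Doxy (2.27 ± 0.99), as did the co-receptor NRP2 (2.00 ± 0.59 and 1.28 ± 0.78), while NRP1 fell (-1.07 ± 0.52 and -1.31 ± 0.95). FLT4 was well above background on 3 Ctl, 6 NaB, 4 Doxy and 5 DoxyNaB arrays and NRP2 on 3, 6, 4 and 6, so both were tested through butyrate-treated groups. Both are in the counts of called receptors, and both are set against groups that were in part not well above background. With normexp NaB/Ctl was 0.59 for FLT4 and 0.62 for NRP2, and DoxyNaB/Doxy was -0.14 for NRP1.

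The FGF receptors were well above background on all 24 arrays. FGFR3 gave 0.92 ± 0.31 in NaB/Ctl, under 2-fold, and rose by 1.37 ± 0.16 in DoxyNaB/Doxy. In NaB/Ctl FGFR1 gave 0.36 ± 0.66 (adjusted p = 0.0811), FGFR2 0.95 ± 0.17, FGFR4 0.60 ± 0.16, the decoy receptor FGFRL1 0.61 ± 0.12 and PDGFRL -0.67 ± 0.24, none past 2-fold. The median of the 9 was 0.61 in NaB/Ctl. Their medians in Doxy/Ctl, DoxyNaB/NaB and the interaction were 0.03, -0.04 and 0.07.

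**Figure D5:**
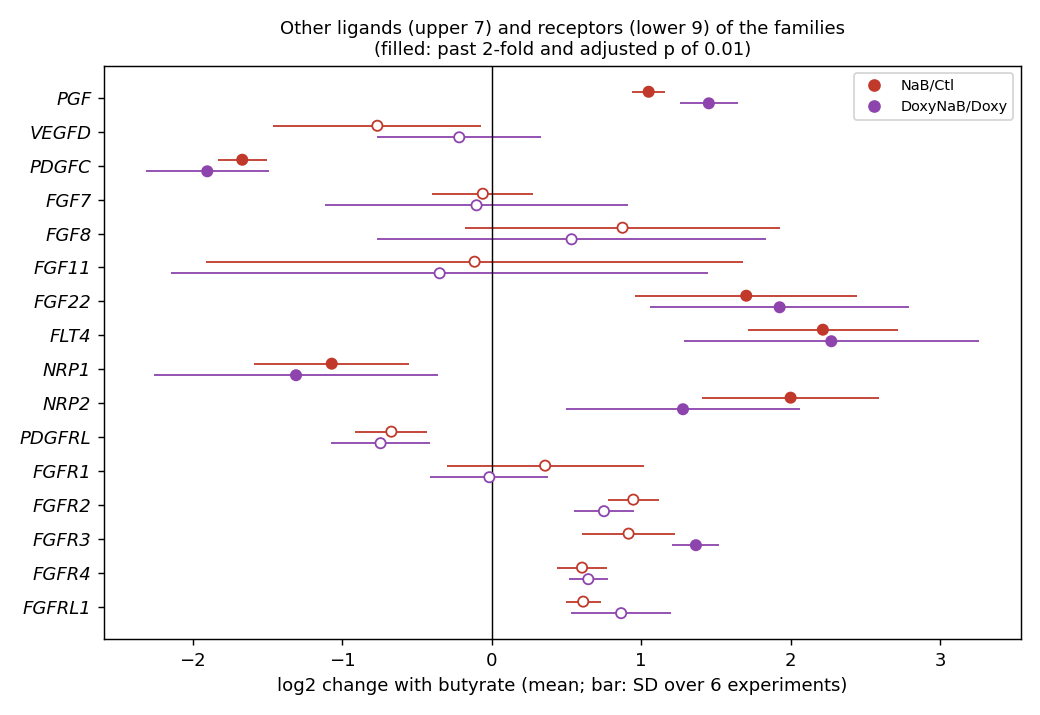
Log2 change with butyrate (mean over 6 experiments, bars SD) of the 7 other tested ligands and the 9 tested receptors, in NaB/Ctl and DoxyNaB/Doxy. Filled points passed 2-fold and an adjusted p of 0.01. FLT4, NRP2, FGF22 and PGF lie to the right in both comparisons, and PDGFC and NRP1 to the left.

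Heparan sulfate and ligand-release genes, 21 tested of 25, gave 4 higher and 3 lower in NaB/Ctl and again in DoxyNaB/Doxy (median 0.40 and 0.32). These 7 of 21 stood beside 31.7% and 30.6% of all probes. The 4 with the largest change in NaB/Ctl were PLAU, the urokinase protease (-3.10 ± 0.12), the glypican GPC3 (2.85 ± 0.24), the heparan sulfate sulfotransferase NDST1 (-2.50 ± 0.25) and the chain polymerase EXT1 (2.27 ± 0.34). PLAU was the 1 gene of the list called in DoxyNaB/NaB, at 1.04 (adjusted p = 2.43e-06).

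Adaptors of receptor tyrosine kinases, 14 tested of 16, gave 2 higher and 0 lower in both butyrate comparisons, beside 31.7% and 30.6% of all probes called. These were the PI3-kinase subunit PIK3R1 (1.91 ± 0.29 in NaB/Ctl) and the docking protein GAB2 (1.43 ± 0.18, and 0.75, 0.82 and 0.53 under the 3 settings above). SHC1 (-0.87 ± 0.13) and GRB2 (0.71 ± 0.18) came next and were under 2-fold.

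MAPK feedback genes, which growth factor signalling is known to induce, had 11 tested of 12. In NaB/Ctl IL17RD (1.91 ± 0.45) and DUSP6 (1.17 ± 0.19) rose, and ETV4 (-1.39 ± 0.17) and SPRY4 (-1.14 ± 0.11) fell. With scaling to the median DUSP6 was 0.26. In DoxyNaB/Doxy 1 was higher and 3 were lower, so 4 of 11 were called in each, beside 31.7% and 30.6% of all probes. DUSP4 and DUSP6, phosphatases of the MAP kinases, passed the interaction test at 0.60 each (adjusted p = 0.00025 and 0.00103), beside 1.24% of all probes that passed.

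Hypoxia drives VEGFA in many cells, so hypoxia genes are given beside it. Of 10 tested regulators, EGLN3 (1.77 ± 0.93) and EPAS1 (1.76 ± 0.19) rose in NaB/Ctl. HIF1A gave -0.99 ± 0.41 there, under 2-fold, and HIF3A 0.81 ± 0.66. EGLN3 was well above background on 3 Ctl, 6 NaB, 3 Doxy and 6 DoxyNaB arrays, so it was tested through the butyrate-treated groups. Its NaB/Ctl change was 0.29 with normexp and 0.39 with quantile normalization, so its size depends on the processing. In DoxyNaB/Doxy 3 regulators were higher and HIF1A was lower (-1.19 ± 0.42). These 2 and 4 of 10 stood beside 31.7% and 30.6% of all probes. Of 13 tested hypoxia-inducible genes, 4 rose in NaB/Ctl, namely ANKRD37 (2.27 ± 1.04), NDRG1 (1.61 ± 0.44), BNIP3L (1.43 ± 0.32) and KDM3A (1.43 ± 0.58), beside 20.7% of all probes called higher. KDM3A was under 2-fold with each of the 3 settings. In DoxyNaB/Doxy 6 were higher and 1 was lower, 7 of 13 beside 30.6% of all probes called. The medians were 0.68 and 0.77. In the interaction the medians of these lists were -0.08 for the regulators and 0.04 for the inducible genes.

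Markers of other cell types were also read. Summed over 7 fibroblast genes, the log2 level ran from -1.47 to -0.88 in Ctl and from 0.20 to 0.88 in NaB (5 arrays), from -1.88 to -0.78 in Doxy and from 0.33 to 1.15 in DoxyNaB. COL3A1 was well above background on 0 arrays and LUM on 1, while THY1 was well above background on 0 Ctl, 6 NaB, 2 Doxy and 6 DoxyNaB arrays. THY1 was therefore tested through the butyrate-treated groups. Its measured log2 change in NaB/Ctl was 5.66 ± 0.41 (adjusted p = 1.4e-10), or 2.21 with normexp. Against the lowest signals well above background on the Ctl arrays the change was at least 24.5-fold. That bound belongs to the scaling used here, and the normexp value lies below it. Summed over 6 endothelial genes the log2 level ran from -3.14 to -1.76 in Ctl, -2.27 to -0.17 in NaB, -2.98 to -0.68 in Doxy and -1.73 to 0.46 in DoxyNaB. TEK was well above background on 1 array. Summed over 5 leukocyte genes it ran from -1.89 to -0.86 in Ctl, -0.28 to 0.21 in NaB, -1.64 to -0.85 in Doxy and -0.22 to 0.48 in DoxyNaB. The summed fibroblast and leukocyte levels were higher with butyrate on every array summed, and the endothelial ranges overlapped. Summed over 8 colon epithelial genes the level ran from 7.71 to 7.98 in Ctl (5 arrays), 8.10 to 8.97 in NaB, 7.76 to 8.22 in Doxy and 7.99 to 8.49 in DoxyNaB (5 arrays). EPCAM, an epithelial adhesion molecule, fell in NaB/Ctl (log2 change -1.45 ± 0.40, adjusted p = 3.62e-05) and in DoxyNaB/Doxy (-1.50 ± 0.34, adjusted p = 2.64e-05), with SDs over 5 experiments. Its spot was left out on the Ctl and DoxyNaB arrays of experiment 1. EPCAM was the 1 gene called of the 6 tested epithelial genes, beside 31.7% and 30.6% of all probes. The other 5 were not called in either comparison. The median of the 6 was 0.38 in NaB/Ctl and 0.40 in DoxyNaB/Doxy. The part of these markers in the ligand changes was not tested.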

How the data were processed

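Total RNA of 24 samples was labelled in 1 colour and hybridised to Agilent whole-genome arrays. The deposited files hold the signal intensity of 44495 spots per array from Agilent Feature Extraction 9.5.3.1. Per the file headers, background and spatial trend were removed within each array and no step scaled arrays to each other. Gene positions are those of the files (NCBI36), and RefSeq promoter windows are GRCh38.p14.

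Control spots and outlier spots (359 to 795 per array) were left out, and the log2 signal was set relative to the array's 75th percentile (380.2 to 1323 signal units). Spots of 1 probe were averaged, and for each gene the probe of highest mean level was taken. A spot was well above background by the software's own flag. In R 4.3.3, limma 3.58.1 (lmFit, eBayes) was fitted to all 24 arrays and 18979 tested probes with the experiment as a block, since the study used a paired test and the arrays of an experiment share a slide in experiments 2 to 6. Deviations from the treatment means correlated between arrays of 1 experiment (r from 0.219 to 0.853), except NaB with DoxyNaB in experiment 3 (r = -0.224). Experiment 1 had its butyrate arrays on another slide and scan date, so slide and butyrate cannot be told apart there. The fit was tested on simulated data. The number of arrays limits the precision.

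Named genes are all 10 ligands, TCF7L2, AXIN2, the 3 genes of highest r to each tested ligand, the receptors tested, and the 4 of largest change in NaB/Ctl of each list. DUSP4, the untested receptors and single cell type markers were named after their values were seen. The ligands and lists were chosen with earlier results of these data known. Alternatives were other background corrections, scalings, filters, blocks, thresholds and tests, and each experiment left out. Fits without the 2 arrays of brightest negative controls and within scan dates were added after seeing the data. Figures and tables used Python 3.11.15 with pandas 2.3.3 and matplotlib 3.10.9.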

Additional observations from a re-analysis of the deposited data

Results flagged for a closer look

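KITLG and FGF19 responded differently to butyrate without and with doxycycline by the limma interaction test, at 1.05 and 1.10 on the log2 scale (adjusted p = 2.47e-05 and 6.98e-05), in 6 of 6 experiments each.

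Of 40 groups of 6 arrays examined by Dixon's test, 3 held an array set apart, where chance gives about 1 in 20. All 3 were arrays of experiment 1. They were FGF19 in NaB, at -1.73 with the next array at -1.27, PDGFB in Doxy, at -0.63 with the next at -1.11, and VEGFB in Doxy, at 1.99 with the next at 1.70.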

How the results depend on the processing

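Without experiment 1 to 6 in turn, 5 ligands were called in NaB/Ctl, 4 to 5 in DoxyNaB/Doxy (PDGFB lost without experiment 1 or 5), 0 in Doxy/Ctl, 1 in DoxyNaB/NaB and 2 in the interaction. Without the replicate block the counts were 5, 5, 0, 1 and 2, so the pairing changed no count. Normexp background correction gave 3 in NaB/Ctl (PDGFA and FGF18 lost), 3 in DoxyNaB/Doxy (PDGFA and PDGFB lost) and 1 in the interaction. Quantile normalization gave 1 in the interaction. Scaling to the median gave 0 in DoxyNaB/NaB and 0 in the interaction, as did the methods' paired t-test with Benjamini-Hochberg adjustment. Experiments 5 and 6 only gave 0 in both, and experiments 2 to 4 only gave 0 in the interaction. A fold over 1.5 or no fold threshold gave 2 in DoxyNaB/NaB. Without a filter, 7 were called in NaB/Ctl and 6 in DoxyNaB/Doxy, with VEGFC among those gained in each. VEGFC was well above background on 0 Ctl arrays and 1 array of each other treatment, so its calls give no direction. PDGFA was not tested under a filter on all 24 arrays, which left 4 in each of these comparisons.

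The median of all tested probes in NaB/Ctl was 0.17 as reported, 0.07 with normexp, -0.09 with quantile normalization and -0.74 with scaling to the median, and in DoxyNaB/Doxy 0.10, 0.21, -0.11 and -0.55. Of 787 values of single genes over 20 settings, 755 kept their side of the threshold, 27 fell short of it, 5 newly passed it, and 47 uncalled values changed sign. VEGFC and FGF2 are limited by their signal over background. The causes of these changes were not tested.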
